A study of Mus musculus with 20 samples.

Results

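The genes described here belong to the pathway of major histocompatibility complex (MHC) class II. H2-Aa, H2-Ab1 and H2-Eb1 encode class II chains and Cd74 the invariant chain. Ciita encodes the transactivator of class II genes, and Cst3 encodes cystatin C, an inhibitor of cathepsins. These are 6 of the 25246 genes in the deposited tables, without mitochondrial genes and spike-ins. Cd74 was selected on these data, because it fell between 2 sorted populations of the TBGR mouse, from cells without T-bet to those with an intermediate level, so that fall is a description and carries no test. The other 5 genes were chosen for their place in the same pathway, to see whether they were found in the same cells as Cd74.

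Single thymic precursors of intraepithelial lymphocytes (IELPs), depleted of CD4 and CD8 cells and sorted for the alpha beta T cell receptor and as NK1.1-, were measured with CEL-Seq2, which counts transcripts at their 3′ end with a unique molecular identifier (UMI). The samples are taken as 3 mice, 1 per genotype, because figure captions of the paper name a single mouse. Its text writes of mice in the plural, and of 2 to 3 weeks of age for the C-myc genotypes. The TBGR mouse, 4 weeks old, carries a reporter that makes ZsGreen where T-bet is expressed, and its cells were sorted by CD122 and ZsGreen into 4 populations of 2 libraries each. Both C-myc mice were 2 weeks old and carry the reporter too. The TBGR C-myc fl/fl mouse has floxed C-myc alleles that are intact, while in the TBGR C-myc D/DCd4 mouse Cre driven by Cd4 deletes them, which happens only in cells that have expressed Cd4. Below, CD122- and CD122+ stand for the populations without T-bet, and T-bet int and T-bet high for those with CD122 and with intermediate or high ZsGreen. Of the 8 fl/fl libraries, 4 hold CD122- with CD122+ cells and 4 hold T-bet int with T-bet high cells. The D/DCd4 mouse gave CD122- and CD122+ cells, in 2 libraries each. Libraries of a population are numbered from 1 in the order of their labels. In the TBGR and D/DCd4 mice each library holds 1 population, so population and library cannot be told apart there, and neither can genotype, age and mouse between the TBGR mouse and the others.

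MHC class II molecules are pairs of an alpha and a beta chain that show peptides from the endosome to CD4+ T cells. The invariant chain, the product of Cd74, binds new class II pairs in the endoplasmic reticulum, blocks their groove and carries them to the endosome, where cathepsins degrade it. Dendritic cells, B cells, macrophages and thymic epithelium express these genes at a high level under the transactivator CIITA, whereas mouse T cells express little or no class II.

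Class II promoters are known for a shared set of boxes, and the promoters of members are shown because 3 class II genes are compared below. Promoter windows of RefSeq (build GRCm38.p6) were available for 3 of the 6 members, H2-Aa, H2-Eb1 and Cst3. The 120 bases before the start site are printed in the direction of transcription, for H2-Aa from chr17:34287824-34287943 (- strand), for H2-Eb1 from chr17:34305747-34305866 (+ strand) and for Cst3 from chr2:148875513-148875632 (- strand). Capitals mark GATTGG (the core of the Y box, bound by NF-Y), CTAGCAA (part of the X box, bound by RFX) and TGACG (part of a CREB site), each searched on both strands.
H2-Aa: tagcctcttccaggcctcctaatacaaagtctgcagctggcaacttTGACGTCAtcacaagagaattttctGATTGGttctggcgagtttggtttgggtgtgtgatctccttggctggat
H2-Eb1: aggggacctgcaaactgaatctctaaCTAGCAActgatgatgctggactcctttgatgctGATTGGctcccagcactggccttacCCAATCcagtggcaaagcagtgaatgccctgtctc
Cst3: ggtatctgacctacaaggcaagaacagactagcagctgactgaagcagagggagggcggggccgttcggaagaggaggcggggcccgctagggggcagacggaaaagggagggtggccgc
In H2-Aa, GATTGG begins 49 bases before the start site, and TGACG, 74 bases before it, overlaps its match on the other strand, 71 bases before it. In H2-Eb1, GATTGG begins 60 and its match on the other strand 35 bases before the start site, with CTAGCAA 94 bases before it. The Cst3 window, to 250 bases before the start site, has none of these letters. Of all 32851 windows in the table, from 250 bases before to 50 after the start site, 16.1% hold GATTGG, 3.20% CTAGCAA and 20.8% TGACG on either strand, so a match alone is common for the first and the last of them.

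Cells were kept when they held at least 2000 transcripts, which left 1413 of 1920. Of these, 1395 (98.7%) had a transcript of CD3 or of the T cell receptor, and in the TBGR mouse 100% had one. The deposited design text calls the cells NK1.1+, whereas the paper calls them NK1.1-. Klrb1c, the NK1.1 gene, stood at 0, 10.9, 39.5 and 563 transcripts per 1000000 (CPM) in the 4 TBGR populations, from CD122- to T-bet high. Il2rb, which encodes CD122, stood at 7.14, 269, 398 and 515 CPM in the same order, and Tbx21, which encodes T-bet, at 0, 1.36, 48.0 and 165 CPM, so the sorted markers rose in the order of the sort.

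Before the results, 2 features of the libraries need to be known. The first is that 4 of the 1413 cells hold most of the Cd74 transcripts. These 4 cells had at least 10 Cd74 transcripts each, while the other 1409 had at most 4, and the results that rest on them are given with and without them. The second is that all 20 libraries use the same set of cell barcodes, 96 with a cell and 96 empty in each library, and each barcode holds a cell in 10 of the 20 libraries. Shared barcodes are common to the design, and 1 of them, number 172, is described below. No test was run, since each genotype is 1 mouse, and intervals (95%) cover counting error only.

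Cd74, the invariant chain, was found in 53 of 1413 cells with 255 transcripts in all. In the TBGR mouse, CD122- libraries 1 and 2 held 11 and 25 Cd74 transcripts (22.7 and 50.3 CPM). CD122+ library 1 held 96 in a single cell and 30 in others (163 CPM together), and library 2 held 5 (7.21 CPM). T-bet int libraries held 0 and 2, and T-bet high libraries 1 and 0. Cd74 was thus mainly found before T-bet rose, but library 1 of the CD122+ cells stood far above library 2, and library 2 lay below both CD122- libraries.

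Cd74 was nearly absent from the fl/fl mouse. CD122- libraries held 0, 2, 0 and 0 Cd74 transcripts, and none were found in the 4 libraries of CD122+ cells (757480 transcripts of all genes), which allows up to 3.96 CPM. T-bet int libraries held 0, 37, 0 and 0, all 37 in a single cell, and T-bet high libraries none. In the D/DCd4 mouse, CD122- libraries held 0 and 1 Cd74 transcripts and CD122+ libraries 0 and 45, of which 41 lay in a single cell. Outside the TBGR mouse, each library with more than 3 Cd74 transcripts therefore owed most of them to 1 cell.

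By population, the order of Cd74 was TBGR CD122+ (89.2 CPM, 74.6 to 106), D/DCd4 CD122+ (62.8, 45.8 to 84.0), fl/fl T-bet int (43.5, 30.6 to 60.0) and TBGR CD122- (36.7, 25.7 to 50.8), with the other 6 populations between 0 and 2.47 CPM. Neighbours among the first 4 had overlapping intervals, and the libraries within the first 3 differed more than the populations did. Without the 4 cells, TBGR CD122+ (24.0 CPM, 16.7 to 33.3) and CD122- cells (23.6, 15.0 to 35.5) did not differ beyond counting error, D/DCd4 CD122+ cells followed at 5.67 CPM (1.55 to 14.5), and fl/fl T-bet int cells held none.

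**Figure D1:**
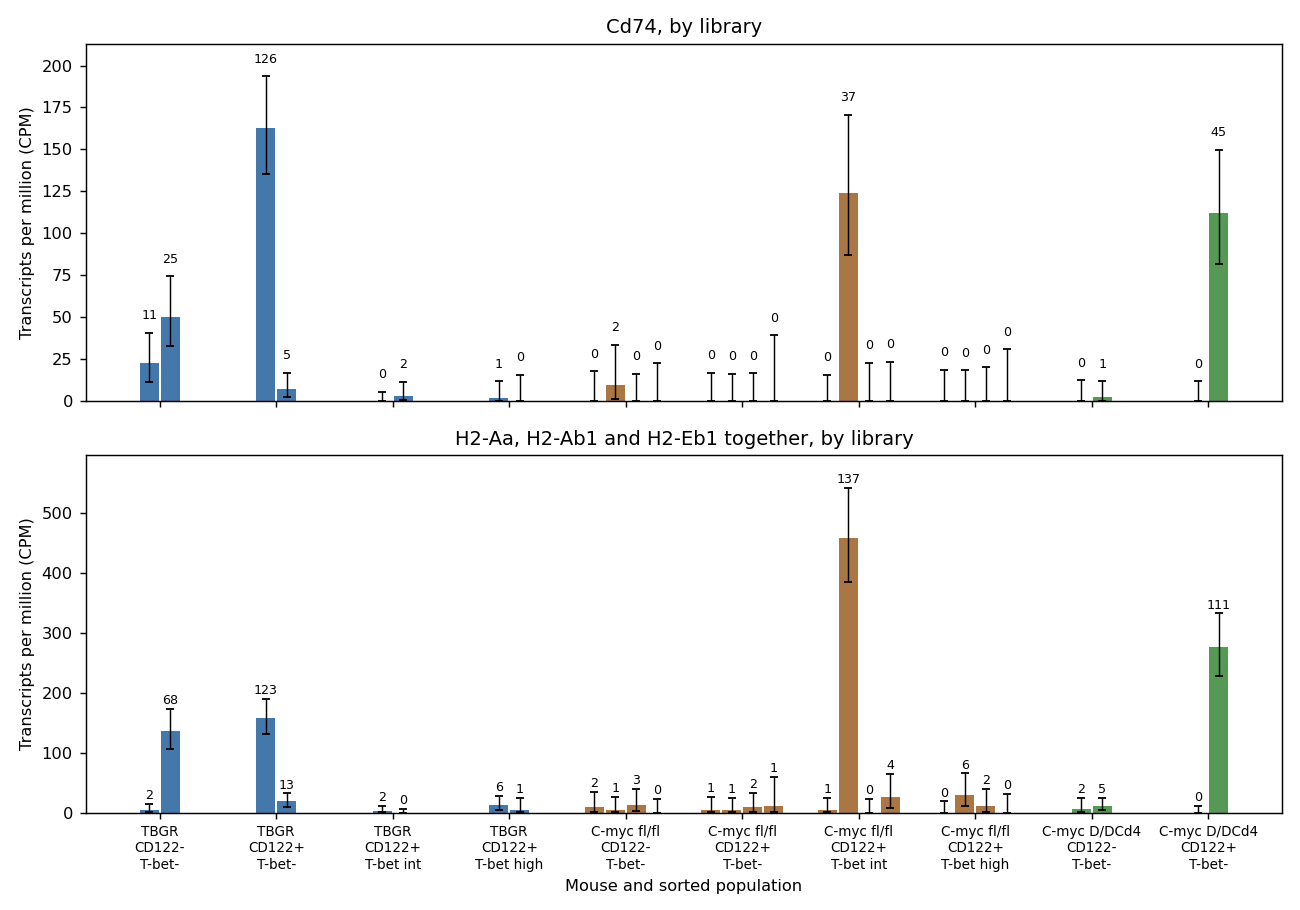
Cd74 (upper panel) and H2-Aa, H2-Ab1 and H2-Eb1 together (lower panel) in CPM for each library, by mouse and sorted population. Bars are libraries, lines are exact 95% Poisson intervals and the number above each bar is the count of transcripts.

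The fall by which Cd74 was chosen, from 131 transcripts in TBGR CD122+ to 2 in T-bet int cells, came to a log2 ratio of -5.53 (-8.91 to -3.97). Without the cell that held 96 of the 131, it was -3.65 (-7.05 to -1.99), from 35 to 2 transcripts. Of those 35 transcripts, 30 were in library 1, and without library 1 the ratio was -2.04 (-5.61 to 0.39), from 5 to 2 transcripts. The size of the fall thus came mainly from library 1. Since Cd74 was chosen by this fall, the intervals describe counting error and are no test of it.

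The step before it, from TBGR CD122- to CD122+ cells, gave 36 and 131 Cd74 transcripts, a log2 ratio of 1.27 (0.74 to 1.85). This rise depended on 2 of the 4 cells: without them the counts were 23 and 35 and the ratio was 0.01 (-0.78 to 0.84). Without library 1 of the CD122+ cells the ratio was -2.23. In the fl/fl mouse, where libraries hold both populations, the same step had 2 and 0 transcripts, too few for a fold.

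The fl/fl mouse, which was not used to choose Cd74, showed no fall from CD122+ to T-bet int cells. Cd74 was at 0 in the first and had 37 transcripts in the second. That was 11.0-fold higher against the floor of 3 counts over the population (interval of the log2 ratio from 3.09), and 0 and 0 without the 1 cell. Its CD122+ cells, where 0 transcripts allow up to 3.96 CPM, lay below TBGR CD122+ library 1 (39.1 CPM without cell 29 and barcode 172). They did not lie apart from library 2 (7.21 CPM, or 4.38 without barcode 172, 0.902 to 12.8), so the mice differed in the level before the fall against 1 library only. In the D/DCd4 mouse, Cd74 went from 1 transcript in CD122- to 45 in CD122+ cells, a log2 ratio of 5.02 (3.04 to 10.9), and to 4 without the 1 cell, with a ratio of 1.70 (-1.22 to 7.74). Against the fl/fl mouse, put at the floor of 3 counts, D/DCd4 CD122+ cells had 15.9-fold more Cd74 (45 against 0 transcripts, interval of the log2 ratio from 3.63). Without the 1 cell the counts were 4 against 0, which is within counting error (interval of the log2 ratio from -0.50). All 45 were in library 2, so without that library both populations were at 0.

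H2-Aa, H2-Ab1 and H2-Eb1, the alpha chain of I-A and the beta chains of I-A and I-E, had 494 transcripts in 84 cells. In the 4 cells they had 154, 100 and 127, and in the others 51, 26 and 36. In the TBGR mouse, CD122- libraries held 2 and 68 class II transcripts, CD122+ libraries 123 and 13, T-bet int libraries 2 and 0, and T-bet high libraries 6 and 1. In the fl/fl mouse, CD122- libraries held 2, 1, 3 and 0, CD122+ libraries 1, 1, 2 and 1, T-bet int libraries 1, 137, 0 and 4, and T-bet high libraries 0, 6, 2 and 0. In the D/DCd4 mouse, CD122- libraries held 2 and 5 and CD122+ libraries 0 and 111. The libraries with over 60 class II transcripts were the 4 that each hold 1 of the 4 cells with much Cd74.

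From TBGR CD122+ to T-bet int cells, class II fell along with Cd74 when libraries were summed. H2-Aa went from 69 to 0 transcripts, 20.2-fold lower against the floor of 3 counts (interval of the log2 ratio up to -4.00). H2-Eb1 went from 56 to 0, 16.4-fold lower against that floor (interval up to -3.69). H2-Ab1 went from 11 to 2, a log2 ratio of -2.02 (-5.49 to -0.08). Without the 1 cell, H2-Aa went from 29 to 0 (8.55-fold lower against the floor, interval of the log2 ratio up to -2.70). H2-Eb1 went from 20 to 0 (5.90-fold lower, interval up to -2.13) and H2-Ab1 from 5 to 2 (log2 ratio -0.96, -4.54 to 1.47). Summed, the 3 genes went from 136 to 2 transcripts (-5.59) and from 54 to 2 without the cell (-4.27), of which 41 of the 54 were in library 1. Of the other 13, 12 were in barcode 172, described below, and without it library 2 held 1 class II transcript (1.46 CPM) against 2 and 0 (3.03 and 0 CPM) in the T-bet int libraries. The fall of class II was therefore seen in library 1 only. Lists of other cell types changed in the same step, in both directions. Of gamma delta T cells, 3 of 5 tested genes were called lower (Trdc, Sox13 and Blk, list median -2.43), beside 6.94% of all genes. Of double positive thymocytes, 3 of 5 were lower and 1 higher (-1.05), and of dendritic cells 1 of 6 was lower (-0.93). Of B cells, 2 of 4 were higher (0.69), beside 3.49% of all genes called higher. Of monocytes and macrophages, 2 of 3 were higher and 1 lower (1.88). Genes of other lists thus changed in this step as well. Whether the make-up of the populations changed or levels within their cells, and the part of either in the fall, was not tested.

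A gene was called lower or higher in a step when its log2 ratio was at least 1 in size and the libraries of the populations did not overlap (TBGR) or had the same sign in all 4 libraries (fl/fl), among genes with at least 20 transcripts. Cd74, H2-Aa and H2-Eb1 were called lower from TBGR CD122+ to T-bet int cells, 3 of the 4 members with enough transcripts, beside 6.94% of all 9461 genes tested. That step chose Cd74, and nothing is read from the count. All 3 were also called without the 4 cells, but H2-Eb1 only through barcode 172. Without that barcode as well, H2-Eb1 had 16 and 0 transcripts, under the minimum. CD122+ libraries then held 30 and 3 Cd74 and 21 and 1 H2-Aa transcripts, against 0 and 2 and 0 and 0 in the T-bet int libraries, so library 2 was set apart by 1 transcript each and nothing is read from these calls.

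The step from TBGR CD122- to CD122+ cells was different for class II and Cd74 once the 4 cells were left out. Class II then went from 8 to 54 transcripts, a log2 ratio of 2.09 (1.09 to 3.45), while Cd74 went from 23 to 35 (0.01). With all cells it was 70 and 136 (0.37, -0.05 to 0.81), since CD122- library 2 holds 62 class II transcripts in a single cell. Without the 4 cells 3 of 4 tested members were called higher in this step, where 14.3% of all genes were with all cells. They were Cst3, described below, H2-Aa (4 and 29 transcripts) and H2-Eb1 (3 and 20). H2-Aa was at 0 and 4 in the CD122- and 21 and 8 in the CD122+ libraries. With all cells neither H2-Aa nor H2-Eb1 was called, and 7 of the 8 H2-Aa transcripts of CD122+ library 2 were in barcode 172. Without that barcode neither was called, and class II stood at 4.13 and 12.3 CPM in the CD122- libraries (2 and 6 transcripts) and at 53.4 and 1.46 CPM in the CD122+ libraries (41 and 1). The rise of class II without the 4 cells was thus found in library 1 only, and library 2 of the CD122+ cells was not above the CD122- cells. Of the list of monocytes and macrophages, 2 of 2 tested genes were also called higher in this step without the 4 cells, Fcer1g (3.08 to 85.5 CPM) and Cd68 (5.14 to 13.7). With all cells 2 of 4 were, with a list median of 0.27 beside 0.26 for all genes, of which 14.3% were called higher. Other lists changed too without the 4 cells. Of B cells 1 of 2 was higher, of dendritic cells 1 of 3 was higher and 1 lower, and of double positive thymocytes 3 of 6 were lower. Fcer1g rose further to 316 CPM in T-bet int cells, where class II was at 2 transcripts.

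Cd74 and class II were in the same cells to a large part because of the 4 cells. Those 4 held 187 of the 255 Cd74 transcripts (73.3%) and 381 of the 494 class II transcripts (77.1%). Across 1413 cells, the Pearson correlation of Cd74 with class II, both as parts of all transcripts of a cell, was 0.78, and it was 0.14 across the 1409 others. These cells share libraries and differ in depth, and the second value is too low to describe a relation in counts this sparse. The class II chains also correlated less with each other across the 1409 cells, at 0.19 to 0.31, against 0.84 to 0.95 across all 1413. The drop was thus not particular to Cd74 with class II.

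Of the 53 cells with Cd74, 17 (32.1%, 19.9 to 46.3) had a class II transcript, against 67 of 1360 cells without Cd74 (4.93%, 3.84 to 6.21). Cells with Cd74 were mostly from libraries in which class II was also more frequent, and without TBGR CD122+ library 1 the share in cells with Cd74 was 16.7%. That library also held 19 of the 67 cells with class II but no Cd74 (26.8% of its cells without Cd74). The share in cells without Cd74 is therefore lower without it too. After each cell was thinned to 2000 transcripts, the shares were 6 of 26 (23.1%, 8.97 to 43.6) and 30 of 1387 (2.16%, 1.46 to 3.07). Without the 4 cells they were 13 of 49 (26.5%, 14.9 to 41.1) and 4.93%, and after thinning 2 of 22 (9.09%, 1.12 to 29.2) and 2.16%. The thinned shares without the 4 cells overlapped within counting error.

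By population, most cells with both were in TBGR CD122+ library 1. In TBGR CD122+ cells, 13 of 27 cells with Cd74 (48.1%, 28.7 to 68.1) and 20 of 159 without (12.6%, 7.86 to 18.8) had class II. In library 1 these were 12 of 23 and 19 of 71 cells, and in library 2 they were 1 of 4, which was barcode 172, and 1 of 88. Thinned and without cell 29, library 1 had 1 of 9 (11.1%, 0.281 to 48.2) and 8 of 84 (9.52%, 4.20 to 17.9), so no overlap was detectable in it at equal depth. In TBGR CD122- cells, 14 cells had Cd74, and 1 of them, in barcode 172, had class II. The other 13, with 23 Cd74 transcripts, 1 to 4 per cell, had no class II transcript, which allows a share of up to 24.7%, above the 3.75% of CD122- cells without Cd74 (6 of 160). Their T cell markers, with a median of 41.5 transcripts in library 1 and 36 in library 2, lay near those of all CD122- cells (41 and 41.5). Low Cd74 in CD122- cells was thus found in both libraries, and whether class II goes with it was not detectable in so few cells.

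**Figure D2:**
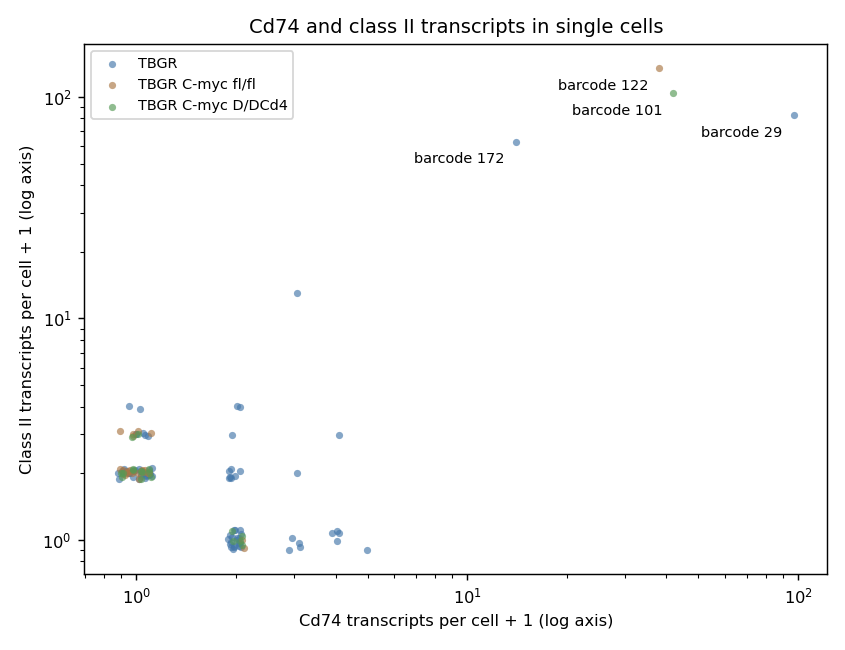
Each point is 1 of the kept cells with a Cd74 or class II transcript, by mouse, with Cd74 transcripts on the x axis and the sum of H2-Aa, H2-Ab1 and H2-Eb1 on the y axis, both with 1 added and on log axes. Points were moved slightly at random to show equal values, and the 4 labelled cells hold 187 of 255 Cd74 and 381 of 494 class II transcripts.

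The 4 cells came from 3 mice and 4 populations, and their barcode numbers are used as names. Cell 29, from TBGR CD122+ library 1, had 96 Cd74 and 82 class II transcripts among 7698. Cell 172, from TBGR CD122- library 2, had 13 and 62 among 7830. Cell 122, from fl/fl T-bet int library 2, had 37 and 134 among 7457. Cell 101, from D/DCd4 CD122+ library 2, had 41 and 103 among 11418. Cd74 exceeded class II in cell 29 only. The median of the other cells of the same population was 7067, 5106, 5957 and 4916 transcripts in this order, and 2 of the 136 others had more than cell 101.

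Markers of other cell types were high in all 4. Cell 29 had 88 transcripts of the list of dendritic cell markers, from 5 of 15 genes, led by Ccl22 (39), Fscn1 (25) and Ccr7 (18), with Xcr1, Clec9a and Flt3 at 0, against a median of 0 in the other cells. Its T cell list stood at 25 transcripts, 17 of them Trbc1, against a median of 45. Cell 172 had 33 transcripts of the list of monocytes and macrophages, from 8 of 15 genes, led by Cd14 (11), Csf1r (7) and C1qb (5), with Cd68 and Mpeg1 at 0, and 53 of the T cell list, against medians of 0 and 41. Another cell of the same population reached 22 transcripts of the list of monocytes and macrophages, and others reached 8 of Csf1r and 4 of C1qb, but at most 1 of Cd14. In these cells T cell markers were present beside the others.

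Cells 122 and 101 carried B cell markers. Cell 122 had 64 transcripts of the B cell list, from 9 of 14 genes, led by Igkc (22), Ms4a1 (12) and Iglc2 (12), with Ighm at 0, and 1 of the T cell list, against a median of 28. Cell 101 had 154 of the B cell list, from 13 of 14 genes, led by Ighm (58), Ms4a1 (36) and Cd79a (16), and 2 of the T cell list, against a median of 28. No transcript of Trbc1 was found in either. The list of Klrb1c, Il2rb and Tbx21 was at 0 in all 4 cells, as were the lists of thymic epithelial, of mesenchymal and endothelial and of erythroid cells. The lists of gamma delta T cells and of double positive thymocytes had at most 2 and 7 transcripts in them. B cells, dendritic cells and macrophages do not carry the T cell receptor for which the cells were sorted, and how their markers came into sorted wells was not tested. Whether these cells account for the results for Cd74 was not tested beyond leaving them out.

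**Figure D3:**
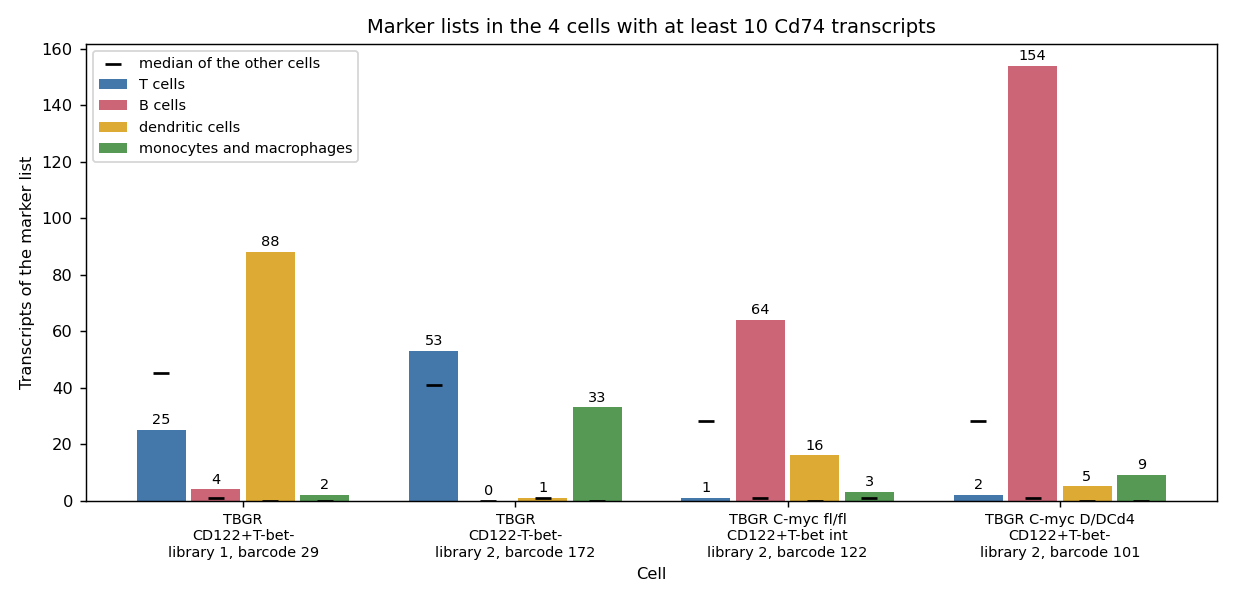
Summed transcripts of 4 lists of cell type markers in each of the 4 cells with at least 10 Cd74 transcripts (bars), with the median of the other cells of the same mouse and population (black lines). The highest bars are the dendritic cell list in cell 29 (88), the B cell list in cells 122 (64) and 101 (154), and the T cell list in cell 172 (53).

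Class II was also more frequent in the other cells of the libraries that hold these cells. In TBGR CD122+ library 1, 30 of the 93 other cells (32.3%, 22.9 to 42.7) had a class II transcript, against 2 of 92 (0.264 to 7.63%) in library 2. In the D/DCd4 CD122+ libraries, this was 7 of 78 other cells (8.97%, 3.68 to 17.6) in library 2, which holds cell 101, and 0 of 58 in library 1. In the fl/fl libraries of cells with T-bet, it was 8 of 64 (12.5%) in library 2, which holds cell 122, and 1 of 61, 1 of 51 and 4 of 51 in libraries 1, 3 and 4. In TBGR CD122- cells, it was 5 of 86 (5.81%) in library 2 and 1 of 87 (1.15%) in library 1. Each of the 4 libraries stood above its partners. Only for TBGR CD122+ library 1 did the interval of the share not overlap with that of its partner, and overlap of intervals alone does not show that libraries are equal.

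In TBGR CD122+ library 1, 2 of the markers of cell 29, Ccl22 and Fscn1, were also found in other cells; these genes and Ccr7 were chosen after their values were seen. Outside cell 29, library 1 held 30 Cd74 transcripts in 22 cells, 6 of Ccl22, 4 of Fscn1 and 38 of Ccr7. Library 2 held 5, 0, 0 and 22. Summed, the dendritic cell list had 86 transcripts (112 CPM) in the other cells of library 1 and 63 (90.8 CPM) in library 2, where Ccr7 was the most abundant gene of the list in both. Without Ccl22, Fscn1 and Ccr7, the other 12 genes of the list had 38 transcripts (49.5 CPM) in library 1 and 41 (59.1 CPM) in library 2. Cell 29 itself held few transcripts of these 12 genes (5 of Irf8 and 1 of Batf3), so nothing about cell 29 is read from them. Outside library 1 of these cells, no kept cell of the TBGR mouse had a Ccl22 transcript. Cd74 and class II were thus more frequent among the other cells of the library with cell 29. Ccl22 and Fscn1 were found there as well (6 and 4 transcripts, against 0 and 0 in library 2), but they were chosen after these values were seen. The part of cell 29 in any of these counts was not tested.

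Barcode 172 was high for class II in more than 1 TBGR library. Besides the 62 transcripts of cell 172, it held 12 class II and 2 Cd74 transcripts in a kept cell of CD122+ library 2, which had 8180 transcripts. In CD122- library 1 and CD122+ library 1, where barcode 172 is empty, it held 7 and 6 class II transcripts among 95 and 96 in all. Markers of cell 172 were found there too: the kept cell of CD122+ library 2 had 1 Cd14 and 2 C1qb transcripts, and the empty barcode of CD122- library 1 had 3 and 1. Cxcl2, seen after the fact, had 25 transcripts in cell 172, 5 in that kept cell and 1 in each of the 2 empty barcodes, against 23 in the other 675 kept cells and 24 in the other 764 empty barcodes of the mouse. Class II and Cxcl2 were thus at this barcode in all 3 of these libraries. The empty barcode of CD122+ library 1 had 0 Cd14 and 0 C1qb transcripts, so the only marker there was 1 Cxcl2 transcript. How transcripts of the same genes came to the same barcode in several libraries was not tested. Those other empty barcodes held 7 class II transcripts together. In the TBGR libraries of cells with T-bet, barcode 172 held none, and barcode 29 held no class II in any other library of the mouse, and 1 Cd74 transcript in each of 2, a kept cell of CD122- library 1 and an empty barcode of CD122- library 2. Without the 4 cells and barcode 172, class II from TBGR CD122+ to T-bet int cells had a log2 ratio of -3.90, and from CD122- to CD122+ cells 1.74, both through library 1 of the CD122+ cells alone.

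Empty barcodes held few transcripts of these genes, but class II was a larger part of them than in kept cells. The 1920 of them, with a median of 17.5 transcripts, held 1 Cd74, 22 class II, 8 Cst3 and 0 Ciita transcripts among 51080. The 22 came to 431 CPM (270 to 652), against 54.6 CPM (49.9 to 59.6) in kept cells, and without barcode 172 the other 9 came to 177 CPM (81.0 to 336). The fl/fl mouse had 2 of the 22 class II transcripts and the D/DCd4 mouse none. The source of class II transcripts in empty barcodes was not tested.

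**Figure D4:**
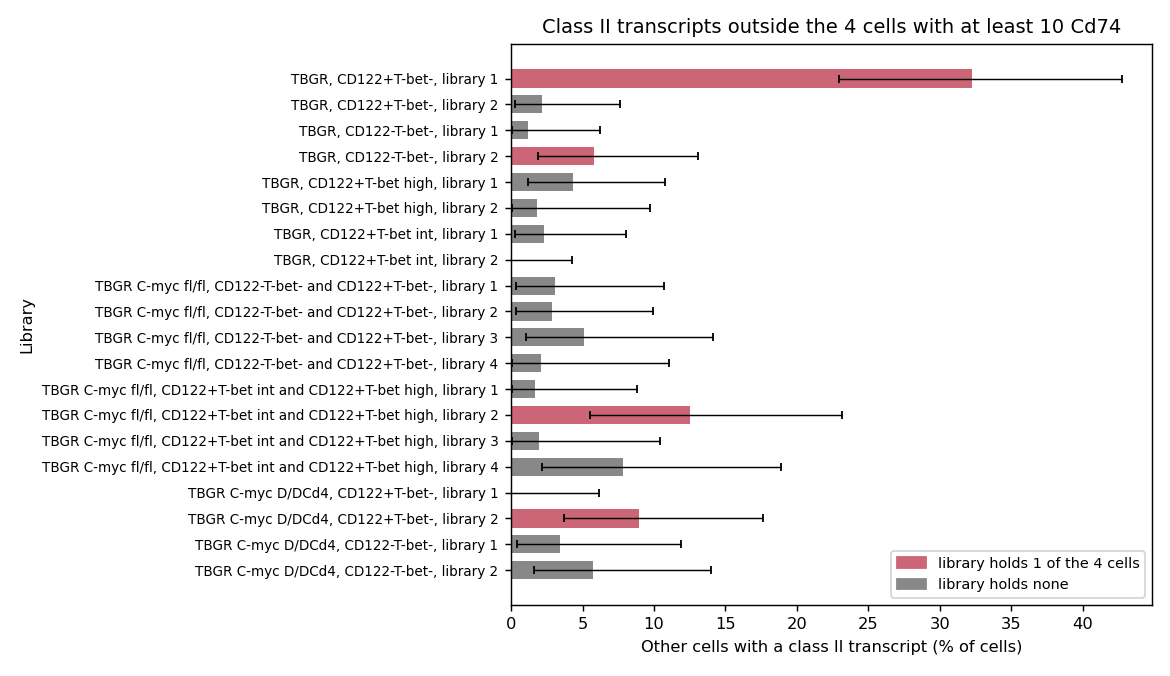
Share of cells with a transcript of H2-Aa, H2-Ab1 or H2-Eb1 in each library, after the 4 cells with at least 10 Cd74 were left out. Lines are exact 95% binomial intervals, red bars are the libraries that held those cells, and TBGR CD122+ library 1 stands at 32.3%, and the other 19 libraries lie between 0% and 12.5%.

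Ciita, the transactivator of class II genes, had 21 transcripts in 17 cells, so its changes were not detectable at this depth. In the TBGR mouse it had 1, 7, 1 and 5 transcripts in the order of the sort. The fl/fl mouse had 1, 1, 5 and 0, of which 4 of the 5 were in cell 122, and in the D/DCd4 mouse it had none. Cells 29, 172 and 101 had no Ciita transcript beside their 82, 62 and 103 of class II. Ciita was below the minimum of 20 transcripts in each of the steps.

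Cst3 encodes cystatin C, a secreted inhibitor of cathepsins, and was found in far more cells than Cd74. It had 809 transcripts in 453 cells, of which the 4 cells held 105 (13.0%), 98 of these in cell 29. In the TBGR mouse, CD122- libraries stood at 64.1 and 72.5 CPM, CD122+ libraries at 294 and 124, T-bet int libraries at 115 and 101, and T-bet high libraries at 121 and 90.0. Without cell 29, CD122+ library 1 stood at 169 CPM. Cst3 was thus found throughout, lowest in the CD122- libraries.

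From TBGR CD122- to CD122+ cells, Cst3 went from 67 to 314 transcripts, a log2 ratio of 1.64 (1.26 to 2.05), and from 63 to 216 without the 4 cells (1.18, 0.78 to 1.62). It was the only member called higher there with all cells, 1 of 5 tested, beside 14.3% of all 9262 genes, a share near which 1 of 5 is no result about the members. The median log2 ratio of genes with at least 100 transcripts was itself 0.28 in this step, and relative to it Cst3 stood at 1.36, or 0.90 without the 4 cells, which is under the size called. Scaled to that median, the calls over all genes in this step went from 363 lower and 1324 higher to 584 and 892. Part of that shift came from Gm10800, the most abundant gene, which made up 25.4% of the transcripts of TBGR CD122- cells and 12.9% of those of CD122+ cells. With Gm10800 left out of the totals, the median was 0.06 and Cst3 stood at 1.41, still called, and at 0.96 without the 4 cells, not called. The rise of Cst3 in this step was larger than the shift of all genes. By the rule as given, Cst3 was called with and without the 4 cells. Without them the call was lost relative to the median and with Gm10800 left out of the totals.

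Cst3 in the C-myc mice was lower than in the TBGR mouse in CPM. Libraries of fl/fl CD122- cells stood at 33.9, 37.2, 31.1 and 12.2 CPM and CD122+ libraries at 69.1, 66.8, 40.6 and 10.6. The step between them gave 24 and 40 transcripts and a log2 ratio of 0.82 (0.07 to 1.63), beside a median of 0.55 for genes with at least 100 transcripts, and it was not called. Calls over all genes in this step, 13.0% higher and 2.12% lower of 6790, went from 144 lower and 886 higher to 285 and 315 when scaled to that median. T-bet int libraries stood at 64.3, 67.0, 43.5 and 12.7 CPM and T-bet high libraries at 30.2, 40.1, 38.5 and 16.7. In the D/DCd4 mouse, CD122- libraries stood at 33.5 and 42.9 CPM and CD122+ libraries at 60.3 and 74.7, from 30 to 49 transcripts (0.79, 0.12 to 1.51), or 46 without the 1 cell (0.73, 0.04 to 1.45). In both C-myc mice Cst3 was thus higher in CD122+ than in CD122- cells when summed, by less than in the TBGR mouse.

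The mice also differed in what else their cells held. Gm10800 made up 42.8%, 26.8%, 23.9% and 29.8% of the transcripts of the fl/fl populations in the order of the sort, 31.0% and 28.1% in the D/DCd4 mouse, and 25.4%, 12.9%, 7.81% and 9.36% in the TBGR mouse. With it left out of the totals, Cst3 stood at 91.6, 245, 117 and 122 CPM in the TBGR mouse, at 51.8, 72.1, 68.0 and 46.9 in the fl/fl mouse and at 56.8 and 95.1 in the D/DCd4 mouse, so the order of the mice was kept and the fl/fl step fell to 0.47. The median of the T cell list was lower in the C-myc mice as well, 19 to 28 transcripts per cell against 34 to 45. Whether the lower Cst3 is more than such differences between the mice and their libraries was not tested.

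From TBGR CD122+ to T-bet int cells, Cst3 went from 314 to 140 transcripts (-0.98, -1.28 to -0.69) and from 216 to 140 without the 4 cells (-0.45, -0.77 to -0.14). With Gm10800 left out of the totals these were -1.06, which was called lower, and -0.53, which was not, while Cd74 stood at -5.61 and the calls of the other members were kept. Across cells its correlation with Cd74 was 0.82 with all 1413 cells and 0.03 without the 4. From T-bet int to T-bet high cells, no member was called of the 1 tested in the TBGR mouse, beside 11.7% of 8564 genes lower and 7.93% higher, and scaling to the median (-0.13) changed those calls from 1001 lower and 679 higher to 826 and 874. In the fl/fl mouse, H2-Aa was called lower in this step, from 50 to 4 transcripts, 1 of 5 tested beside 4.68% of 6908 genes. That call came from cell 122 and was lost without it, and in libraries 3 and 4 the first population held 0 and 2 H2-Aa transcripts and the second 0 and 0. Library 3 thus got its sign from the added 0.5 and the totals alone, and the call is no evidence of a fall. Without calls that need such a library, 321 genes were lower and 163 higher in this step, none of them a member, and 143 lower and 841 higher from CD122- to CD122+ cells. Scaling to the median (-0.18) changed the calls over all genes from T-bet int to T-bet high cells from 323 lower and 164 higher to 215 and 224.

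Other class II genes, those of H2-DM and H2-DO, which load peptide and regulate loading, and H2-Eb2, were sparse but did not follow the 4 cells alone. Of 7 listed genes 5 were in the tables, led by H2-Oa (148 transcripts), H2-DMa (121) and H2-Ob (73). H2-DMa was called lower from TBGR CD122+ to T-bet int cells, from 25.9 to 11.6 CPM (38 and 15 transcripts, log2 ratio -1.13), and -1.10 without the 4 cells. This was 1 of 3 tested, beside 6.94% of all genes called lower, and the median log2 ratio of the 3 was -0.78 beside -0.02 for all genes. H2-Oa was called lower from T-bet int to T-bet high cells, from 19.3 to 2.84 CPM (25 and 2 transcripts, log2 ratio -2.48), 1 of 1 tested beside 11.7% of all genes called lower. In cells 122 and 101 this list had 18 and 10 transcripts, 8 of them H2-DMb1 in each, against a median of 0.

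The list of class II transcription (RFX, NF-Y, CREB and the interferon gamma pathway) was measured in 13 of 13 genes, among them Jak1 (4192 transcripts) and Ifngr1 (973). In the TBGR step from CD122- to CD122+ cells, 3 of 13 were called higher and 0 lower, beside 14.3% and 3.92% of all genes, and the list's median was 0.09 beside 0.26 for all genes. Those were Rfx5 (5 and 19 transcripts, 1.24), Rfxap (16 and 53, 1.11) and Ifngr1 (32 and 97), and relative to the median of genes with at least 100 transcripts they stood at 0.96, 0.84 and 0.72, under the size called. Ifngr1 was no longer called without the 4 cells. From CD122+ to T-bet int cells, Ifngr2, a chain of the interferon gamma receptor, was called lower alone (86 and 15 transcripts, -2.30), 1 of 13 beside 6.94% of all genes. In the fl/fl mouse it was called lower from CD122- to CD122+ cells (41 and 15, -1.32), 1 of 10 beside 2.12%. From TBGR T-bet int to T-bet high cells, Rfx5 (17 and 4, -1.08) and Nfyb (82 and 18, -1.28) were called lower and Ifngr1 higher (159 and 174), with Rfx5 at -0.95 and Ifngr1 at 1.13 relative to the median. These were 2 and 1 of 12 tested, beside 11.7% of all genes lower and 7.93% higher, so the list as a whole was near the share of all genes.

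Genes of invariant chain processing and class II turnover were measured in 12 of 12, led by Ctsb (1221 transcripts), Ctsd (1064) and Sppl2a (560). Their median log2 ratio in the TBGR steps was 0.02, 0.08 and 0.23, beside 0.26, -0.02 and -0.09 for all genes. Ifi30, a thiol reductase of the endosome, was called higher from TBGR CD122- to CD122+ cells (17 and 90 transcripts, 1.79, or 1.55 without the 4 cells), 1 of 8 tested beside 14.3% of all genes, and in the fl/fl mouse as well (8 and 45, 2.52). Ctsb was called higher in that fl/fl step too (45 and 93), but stood at 0.59 relative to the median, and the 2 were 2 of 7 tested beside 13.0% of all genes. Ctsd, cathepsin D, was called higher from TBGR CD122+ to T-bet int cells (115 and 203, but 0.95 relative to the median), together with March8 (7 and 16, 1.32), 2 of 8 tested beside 3.49% of all genes called higher. It was called higher again from T-bet int to T-bet high cells (203 and 292, 1.40), 1 of 7 tested beside 7.93%, and in the fl/fl mouse in the same step (87 and 167, 1.22), 1 of 6 beside 2.37% of all genes called higher. Ctsl was called lower in the TBGR step to T-bet high cells (25 and 1, -3.21), 1 of 7 beside 11.7%. Ctsd was thus highest in T-bet high cells, in which Cd74 was at 1 and 0 transcripts in the TBGR and fl/fl mice.

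The list of the CD74 ligand, its partner receptors and the class II receptors held 6 genes, led by Mif (1684 transcripts), Cd4 (842) and Cd44 (704), with medians of 0.46, -0.03 and 0.21 in the TBGR steps. Cd4, a coreceptor for class II, was called lower from TBGR CD122- to CD122+ cells (574 and 88 transcripts, -3.28), 1 of 5 tested beside 3.92% of all genes called lower. It was lower again from CD122+ to T-bet int cells (88 and 24, -1.67), 1 of 5 beside 6.94%, and in the fl/fl mouse from CD122- to CD122+ cells (78 and 12, -2.55), 1 of 5 beside 2.12%. Cxcr4, which can signal with CD74, was called higher from TBGR CD122- to CD122+ cells (20 and 75, 1.30), 1 of 5 beside 14.3%. From T-bet int to T-bet high cells, Mif was called lower (377 and 90, -1.19) and Cd44 higher (89 and 275, 2.50), 1 of 5 each beside 11.7% lower and 7.93% higher. Cd44 was higher in the fl/fl mouse too (36 and 108, 1.85), 1 of 4 beside 2.37%. The calls for Cd4, Cd44 and Mif were the same relative to the median and without the 4 cells.

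Likeness to Cd74 over the 28 units of library and population was the Pearson correlation of log2 CPM with 10 added. Outside the members, the highest of 8136 genes compared were 1110008P14Rik (0.65), Grn (0.64), Abtb1 (0.63), Arhgap27 (0.61), Krtcap3 (0.61), H2-DMa (0.60), Spry1 (0.60) and Csrnp1 (0.60). Among the members, H2-Eb1 reached 0.92, H2-Aa 0.88, H2-Ab1 0.75, Cst3 0.50 and Ciita 0.33. Units of a mouse share their library or their animal, and Cd74 was above 5 transcripts in 5 of the 28, or 3 without the 4 cells. Without those cells, H2-Eb1 stood at 0.55, H2-Aa at 0.46, H2-Ab1 at -0.01 and Cst3 at 0.45, while the genes most like Cd74 were Als2cl (0.80), Gadd45b (0.78), Nr4a3 (0.77) and Sepp1 (0.75), of 8120 compared. The class II chains were thus closest to Cd74 through the 4 cells only.

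Within TBGR CD122+ cells, the 8 cells with at least 2 Cd74 transcripts were set against the 159 without. All of the 8 but barcode 172 were from library 1, while 88 of the 159 were from library 2. The ratios therefore also compare the libraries. The largest log2 ratios of 6336 genes were those of Ccl22 (6.95), H2-Eb1 (6.20), H2-Aa (5.81), Ccr7 (3.63) and Rgs16 (3.46). The smallest were those of Mex3a, Pum3, Nudc, Blk and Samm50, each at 0 in the 8 cells. Against the floor of 3 counts these were 2.40-, 2.31-, 2.25-, 2.25- and 1.98-fold lower. All 39 Ccl22 transcripts of the 8 cells were in cell 29. Without it, the largest were Rgs16 (3.63), Nrp1 (3.17), Klra1 (3.12), Cdc45 (3.02) and Igfbp4 (2.94). The smallest were Mex3a, Pum3, Phf21a, Blk and Nudc, all at 0 in the 7 cells and 2.01- to 2.14-fold lower against the floor. H2-Aa (10 and 15 transcripts, 3.71) and H2-Eb1 (4 and 9, 3.19) were then under the minimum of 30 and so not in this order, and barcode 172 held 7 of the 10 and all 4. Class II in the 7 cells thus came mostly from 1 of them. In the D/DCd4 mouse only cell 101 had 2 or more, with Ms4a1 (10.49), H2-Ab1 (9.94), H2-Aa (9.27), Iglc1 (9.19) and Ighm (5.29) as the largest of 3534 genes. The smallest, all at 0 in cell 101, were Trbc1 (11.4-fold lower against the floor), Noct (5.85), Gm26905 (5.84), Ikzf2 (5.55) and Bcl2 (4.81). The fl/fl mouse had no such cell among its CD122+ cells.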

How the data were processed

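The members and gene lists were chosen with earlier results of these data known. The authors aligned CEL-Seq2 reads to transcripts with BWA 0.6.2-r126, after bcl2fastq 2.17.1.14, and deposited expected counts of transcripts, that is numbers of 6-base UMIs corrected for those drawn more than once. Every value was checked to be one of the 4096 that this correction can give, and values were rounded to whole transcripts. Sorted populations were taken per cell from the tables deposited with the counts. Of 1920 cells, 1413 had at least 2000 transcripts, not counting mitochondrial genes or spike-ins, and were kept. No kept cell had over 2% of Kcnq1ot1, so the paper's limit on it removed none.

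Transcripts were summed over cells per population and library and given per 1000000 transcripts of all kept genes (CPM). Kept cells had a median of 5462 transcripts, and sums ranged from 699596 (fl/fl T-bet high) to 1468961 (TBGR CD122+), so that a count of 0 allows 2.04 to 4.29 CPM. Intervals are exact 95% Poisson for sums, exact binomial for shares and exact conditional binomial for ratios. Log2 ratios had 0.5 added to each sum. A population at 0 was set against a floor of 3 counts, which leaves out counting error in the other count. Cells were thinned to 2000 transcripts without replacement, with a fixed seed. Steps were called over genes with at least 20 transcripts as given in the report. Calculations were tested on simulated data. All were run in Python 3.11.15 with numpy 2.4.6, pandas 2.3.3, scipy 1.17.1 and matplotlib 3.10.9.

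Named genes are the 6 members and, of each list, those called in a step and up to 3 of those with most transcripts. Also named are the 8 most like Cd74 outside the members, among genes with at least 100 transcripts, and the first 4 without the 4 cells. Within CD122+ cells, the 5 at each end among genes with at least 30 transcripts are named. Barcode 172 and the markers followed by library (Ccl22, Fscn1 and Ccr7) or by barcode (Cd14, C1qb and Cxcl2) were chosen after their values were seen. Alternatives were other minimums of transcripts, equal weight for each cell, thinning, another added value, values not rounded, other filters and scaling for steps, and leaving out each library, the cell with the most Cd74 of each population or, chosen after seeing the data, the 4 cells with at least 10 Cd74 and barcode 172. Also chosen after seeing the data were totals without Gm10800, a gene the paper names among those whose correlates it removed, the dendritic cell list without Ccl22, Fscn1 and Ccr7, each CD122+ library alone, and no fl/fl call where a library is at 0 in both populations. No test was run, since each genotype is 1 mouse.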

Additional observations from a re-analysis of the deposited data

Results flagged for a closer look

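In the fl/fl T-bet int cells, library 2 stood far from the other 3 libraries for Cd74 (124 CPM against 0, 0 and 0), H2-Aa (157 CPM), H2-Ab1 (134 CPM), H2-Eb1 (167 CPM) and the 3 class II genes together (459 CPM against 4.29, 0 and 25.3). This is the library with cell 122, which carried B cell markers. In T-bet high cells, which were in the same libraries, library 2 again stood apart for H2-Aa, with 20.05 CPM from 4 transcripts against 0 in the other 3. Groups of 4 libraries in which 1 library had more than 3 transcripts of a member were examined, 12 in all, and 6 had a library this far from the others. Chance flags about 1 in 20 groups, but not among groups chosen like these: where the other 3 libraries are at 0, 1 library above 3 transcripts always stands apart, so the 6 of 12 are not set against that share. These genes are high in the same library, so the 6 are not separate observations.

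Class II was also found in data that the comparisons do not use. Among barcodes that hold no cell, number 172 had 6 class II transcripts in TBGR CD122+ library 1 and 7 in TBGR CD122- library 1, above the 3 that a count of 0 allows. Among the 507 cells under the minimum of 2000 transcripts, 1 cell of fl/fl CD122- library 1, with 674 transcripts, held 22 class II transcripts (10 of H2-Aa, 7 of H2-Ab1 and 5 of H2-Eb1) and 1 of Cd74, with no transcript of the T cell list. All 507 together held 36 class II and 4 Cd74 transcripts.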

How the results depend on the processing

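Without the 4 cells with at least 10 Cd74, an alternative chosen after seeing the data, the log2 ratio of Cd74 from TBGR CD122+ to T-bet int cells moved from -5.53 to -3.65, from TBGR CD122- to CD122+ from 1.27 to 0.00779, in the D/DCd4 mouse from 5.02 to 1.70, and D/DCd4 over fl/fl from 6.59 to 3.27, since those cells hold most of the transcripts. The fl/fl ratio from CD122+ to T-bet int cells changed sign from 6.06 to -0.15, with no Cd74 on either side. Leaving out the cell with the most Cd74 of each population gave 0.00779 for the TBGR rise, -0.16 for the fl/fl ratio and 3.27 for D/DCd4 over fl/fl, and thinning gave 3.003 for the last. Over left-out libraries the TBGR fall ran from -6.88 to -2.04 and the TBGR rise from -2.23 to 2.13. The fl/fl ratios ran from -2.36 to 0.16 (CD122- to CD122+) and from 0.46 to 6.52 (to T-bet int), the D/DCd4 ratio from -0.30 to 5.85, D/DCd4 over fl/fl from 1.27 to 7.42, and the share of Cd74 cells with class II from 16.7% to 36.2%. The ends 0.16, 0.46 and 1.27 are 0 against 0 transcripts, set by the added 0.5 and the totals, and show no difference. The cause was not tested beyond these counts. The number of genes called lower from TBGR CD122+ to T-bet int cells, 657, was 125 with a minimum of 100 transcripts and 1577 with a minimum of 1, which test fewer and more genes. Of 119 alternative values, 15 moved out of the interval of the first value, or beyond 1.5 times it for counts, and 4 changed sign; of 37 for other results, 27 moved. The others do not show stability, since many could not move: an interval has no end where a population is at 0, and a left-out library without Cd74 changes little. Totals without Gm10800, also chosen after seeing the data, moved none of the ratios, and the limit on Kcnq1ot1 changed none, since no kept cell exceeds it. No paired analysis was possible in the TBGR and D/DCd4 mice or between genotypes because libraries there hold 1 population each and each genotype is 1 mouse. The fl/fl steps from CD122- to CD122+ and from T-bet int to T-bet high cells were compared within the libraries that hold both, by the sign in each, and from CD122+ to T-bet int cells the libraries differ. Dropping calls where a library is at 0 in both populations, an alternative chosen after seeing the data, changed the fl/fl calls from 144 lower and 886 higher to 143 and 841, and from 323 and 164 to 321 and 163. Depth limits these results: sums of 1 to 5 transcripts separate no populations, and libraries of the TBGR and D/DCd4 mice hold 1 population each.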

Other observations

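Cell 29 and cell 172 differed in which class II chains they held. Cell 29 had 40 H2-Aa, 6 H2-Ab1 and 36 H2-Eb1 transcripts, and cell 172 had 33, 14 and 15. Cells 122 and 101 had 45, 39 and 50, and 36, 41 and 26. Cst3 was high in cell 29 alone, with 98 transcripts, against 4 in cell 172, 0 in cell 122 and 3 in cell 101. Ifi30 had 18 transcripts in cell 29 and 8 in cell 101. The percentage of mitochondrial transcripts was 16.9 in cell 29, 8.32 in cell 172, 16.4 in cell 122 and 9.78 in cell 101, against medians of 12.2, 9.72, 9.27 and 11.1 in the other cells of their populations.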
